A study of Homo sapiens with 6 samples.

Results

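The regulators of G protein signalling (RGS) are a family of proteins that switch off heterotrimeric G proteins. The 10 genes RGS2, RGS3, RGS4, RGS5, RGS10, RGS12, RGS14, RGS16, RGS19 and RGS20 were taken by symbol from the deposited expression table, where each had a row of its own, 10 of 18268 rows in all. They were chosen with the difference between knockout and control in these same libraries already known, so their values in that comparison are given as a description. They were part of the fit across the whole table, and how many of them it called is given beside the share of all rows called, with nothing read from it. The study sequenced total RNA of the cell line MIA PaCa-2, which was established from a human pancreatic carcinoma and whose cells the labels call epithelial. Its 2 groups were cells labelled KO for LINC00901, a gene of a long non-coding RNA (KO 1 to 3), and cells labelled as a vector control, named LCV2 (vector control 1 to 3, or the controls). All were grown in DMEM with fetal bovine serum and horse serum. The labels do not say how the knockout was made, whether the cells were 1 clone or a pool, or whether the replicates were separate cultures, so the spread between libraries may be technical.

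A receptor of the G protein coupled class activates a G protein by loading its alpha subunit with GTP, and the alpha and beta-gamma parts then act on enzymes and channels. RGS proteins bind the active alpha subunit through a shared RGS domain and speed up its hydrolysis of GTP, which ends the signal. RGS2, RGS3, RGS4, RGS5 and RGS16 belong to one subfamily, of which RGS2 prefers alpha subunits of the Gq class while RGS4, RGS5 and RGS16 act on both Gi and Gq. RGS10, RGS12 and RGS14 form a further subfamily that acts on Gi, and RGS12 and RGS14 carry extra domains that bind Ras-type GTPases and inactive alpha subunits. RGS19 and RGS20 form one that is anchored through a string of cysteines. RGS4, RGS5 and RGS16 are also known as proteins of short life, since an oxidised cysteine behind their first methionine marks them for destruction by the N-degron pathway.

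Levels are in FPKM, which divides fragments by transcript length as well as library size, so levels of different genes can be set side by side. FPKM summed to between 123107 and 134389 per library, and 9153 to 9612 rows reached 1 FPKM. The depth is unknown. The knockout itself was not checked, since 0 rows named LINC00901. The replication-dependent histone genes divided the libraries across the groups: they took 5.20% to 6.26% of the FPKM sum in vector control 1, KO 2 and KO 3, and at most 3.28% in the other 3. A gene at 1 FPKM or more in at least 3 libraries was tested, 9624 in all, with limma on log2(FPKM + 1). Called means that the p adjusted by Benjamini-Hochberg over those rows was below 0.05. A log2 fold change is KO minus vector control on that scale, and it understates the change of low genes.

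RGS4 and RGS5 are next to each other among the protein-coding genes of chromosome 1 in RefSeq, and the differences described below were largest in this pair of the 10 genes. Their sequence ahead of an annotated start is shown to place them. It is RefSeq sequence on GRCh38.p14, read in the direction of each gene and cut to the bases that lie in no exon of GENCODE 29. Capitals mark CANNTG (the E-box) and GGAAA (the core of NFAT sites) on either strand. The deposited values were made on hg19, so these coordinates are not those of the table.
RGS4, chr1:163068621-163068774, plus strand: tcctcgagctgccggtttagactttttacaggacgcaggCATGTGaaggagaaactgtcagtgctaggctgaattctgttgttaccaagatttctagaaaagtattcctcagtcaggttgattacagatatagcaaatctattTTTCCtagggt
RGS5, chr1:163203114-163203166, minus strand: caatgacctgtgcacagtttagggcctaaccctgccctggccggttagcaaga
The RGS4 stretch shown, of 154 bases, held 1 E-box and 1 NFAT core. The RGS5 stretch of 53 bases held neither, while both motifs did occur in the full 250 bases ahead of RGS5 starts. Of the RGS4 stretches not shown, those of 130 and 250 bases each held 1 E-box and 2 NFAT cores, and that of 34 bases held neither. GC content was 41.6% in the RGS4 stretch shown and 56.6% in the RGS5 stretch, and 31.5% to 49.2% in the RGS4 stretches not shown.

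The RefSeq table gave 23 start windows for 9 of the 10 genes. RGS20 was not analysed here. Over the 250 bases before each start, 0 of the 23 held the AP-1 motif TGANTCA, 0 the cyclic AMP response motif TGACGTCA and 0 an NF-kB motif. Of all 35116 windows in the table, 6.57%, 1.65% and 1.73% held these. The E-box CANNTG was in 65.2% of the RGS windows and in 61.8% of all windows, and the NFAT core GGAAA in 52.2% and 55.6%. TATAAA stood in 2 RGS windows, of RGS3 and RGS4, or 8.70% against 10.7% of all. Both strands were searched, windows of 1 gene overlap, and the NF-kB motif contains the NFAT core. These are matches of letters only.

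In the vector controls RGS4 was the most abundant of the 10 genes in all 3 libraries. It stood at 23.07, 26.63 and 28.66 FPKM in vector control 1, 2 and 3, and at 0.13, 0.23 and 0.20 FPKM in KO 1, 2 and 3. The groups lay far apart, and RGS4 was the lowest of the 10 genes in each KO library. The mean level was 140-fold lower in the KO libraries, and the log2 fold change was -4.51 (SE 0.15, n = 3 per group). In bulk RNA, fewer cells that express a gene and less of its RNA in each cell cannot be told apart.

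RGS5, known as a marker of the pericytes that wrap small vessels, stood at 5.99, 7.61 and 14.64 FPKM in the controls and at 0.54, 0.82 and 0.95 FPKM in the KO libraries. The groups did not overlap, and the vector controls differed more among themselves than those of RGS4 did. The mean level was 12.2-fold lower in KO (log2 fold change -2.48, SE 0.30, n = 3 per group). RGS4 and RGS5 both reached 1 FPKM in vector controls alone and so entered the test only through the group in which they were high.

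The groups did not overlap for RGS16 either, at a much lower level. It stood at 0.76, 1.87 and 1.76 FPKM in the controls and at 0.58, 0.44 and 0.26 FPKM in the KO libraries. Vector control 1 lay close to KO 1, and only 2 libraries reached 1 FPKM, so the gene was not tested (difference of mean log2 values -0.76).

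RGS2 and RGS3, the other members of the same subfamily, did not separate the groups. RGS2 stood at 1.60, 5.10 and 7.01 FPKM in the controls and at 3.45, 2.46 and 2.75 FPKM in the KO libraries, so that vector control 1 was the lowest and vector control 3 the highest of the 6. RGS3 stood at 2.40, 4.60 and 5.50 FPKM against 2.84, 4.96 and 4.42 FPKM. Replicate 1 was the lowest library of RGS3 in each group. The log2 fold changes were -0.38 (SE 0.40) for RGS2 and 0.00 (SE 0.29) for RGS3.

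**Figure D1:**
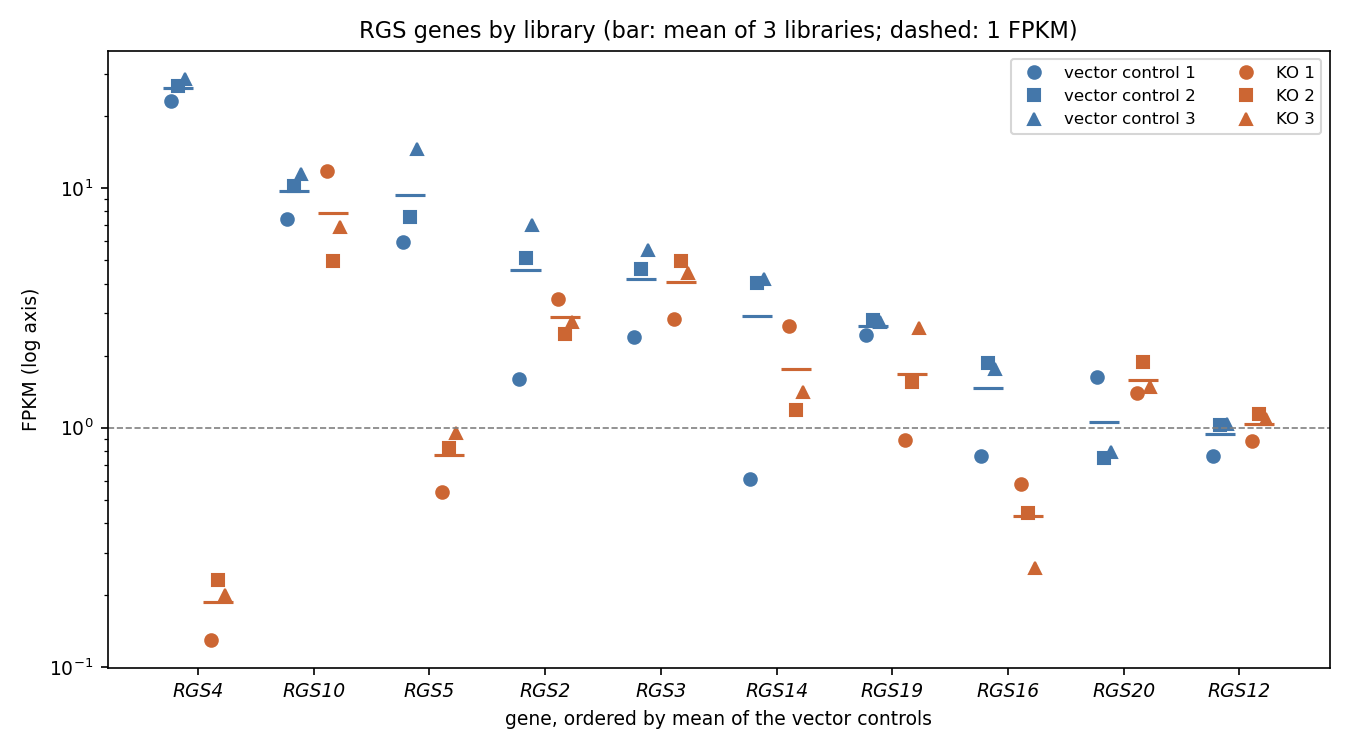
FPKM (log axis) of each of the 10 RGS genes in each library, ordered by the vector control mean, with vector controls in blue, KO libraries in orange and short bars at the mean of 3 libraries. RGS4 and RGS5 lie below 1 FPKM in every KO library and above 5 FPKM in every vector control, while the 2 colours of 7 other genes overlap.

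Among the genes of the Gi-directed subfamily, RGS10 was the most abundant. Its level was 7.46, 10.25 and 11.44 FPKM in the controls and 11.78, 4.96 and 6.89 FPKM in the KO libraries, with the highest and the lowest value both in KO libraries (log2 fold change -0.33, SE 0.30). RGS14 stood at 0.61, 4.02 and 4.17 FPKM in the controls and at 2.67, 1.18 and 1.41 FPKM in the KO libraries. All KO values lay between vector control 1 and the other vector controls (-0.37, SE 0.46). RGS12 stayed between 0.76 and 1.14 FPKM in all 6 libraries (0.07, SE 0.13).

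RGS19 and RGS20, the cysteine-string members, had overlapping groups and values of opposite sign. RGS19 stood at 2.43, 2.81 and 2.76 FPKM in the controls and at 0.89, 1.55 and 2.60 FPKM in the KO libraries, of which KO 3 lay within the control range (-0.50, SE 0.24). RGS20 stood at 1.63, 0.75 and 0.79 FPKM in the controls and at 1.40, 1.88 and 1.48 FPKM in the KO libraries. Its vector control 1 lay among the KO libraries (0.35, SE 0.20).

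Of the 10 genes, 3 had groups that did not overlap, all lower in KO. These were RGS16, which was not tested, and RGS4 and RGS5 among the 9 tested genes. Over all rows tested 23.8% did not overlap, 8.35% lower and 15.4% higher. Of the 9 genes tested, limma called 2, RGS4 and RGS5, both lower, against 1.35% of all rows called in either direction and 0.842% called lower. Nothing is read from these counts, since the genes were chosen on this comparison. RGS5 was not called without KO 1, without KO 2 or without KO 3.

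Of the family's other genes 12 had a row, and 0 of these reached 1 FPKM in any library. RGS8, RGS18 and RGSL1 were listed at 0 throughout. RGS9, a regulator known from the retina, was the highest of them at 0.32, 0.53 and 0.58 FPKM in the controls and 0.38, 0.55 and 0.73 FPKM in the KO libraries. The next was RGS17, the close relative of RGS20, at up to 0.22 FPKM. An exact 0 can be an unmeasured value in this table, where all 13 rows of mitochondrially encoded genes were also listed at 0.

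With RGS4 and RGS5 low, the make-up of the summed RGS level was different. The 10 genes together stood at 63.1 ± 15.6 FPKM in the controls and 22.3 ± 2.78 FPKM in the KO libraries (SD, n = 3 per group). RGS4 was 49.4%, 41.2% and 36.9% of that sum in vector control 1, 2 and 3 and 0.517%, 1.17% and 0.907% in KO 1, 2 and 3. RGS10, which was 14.7% to 16.0% of the sum in the vector controls, was 46.8% in KO 1, 25.3% in KO 2 and 31.2% in KO 3. In KO 2 it shared the first place with RGS3, at 4.96 FPKM each. Without RGS4 and RGS5 the sum of the other 8 was 17.7, 30.4 and 34.5 FPKM in the controls and 24.5, 18.6 and 20.9 FPKM in the KO libraries, and the groups overlapped.

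**Figure D2:**
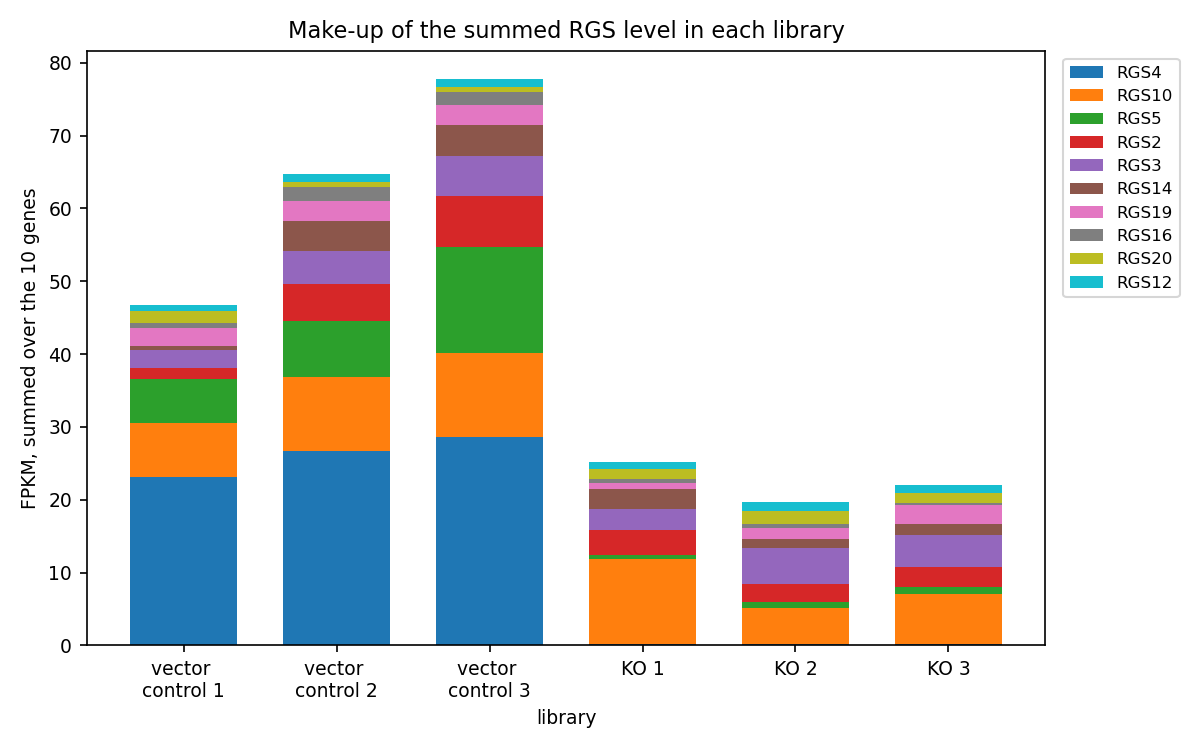
Stacked bars of the FPKM of the 10 RGS genes in each of the 6 libraries, 1 colour per gene. The sum is 46.7 to 77.8 FPKM in the controls and 19.6 to 25.2 FPKM in the KO libraries, and RGS4 and RGS5 are thin slices in the latter.

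Within a group, the order of levels was clear for RGS4, first in every control and last in every KO library, and less so for the others. In the vector controls RGS10 (9.72 ± 2.04 FPKM) and RGS5 (9.41 ± 4.60) followed RGS4 and did not differ beyond their spread. Neither did RGS2 (4.57 ± 2.74), RGS3 (4.17 ± 1.59), RGS14 (2.93 ± 2.01) and RGS19 (2.67 ± 0.206), nor RGS16 (1.46 ± 0.612), RGS20 (1.06 ± 0.497) and RGS12 (0.943 ± 0.159). That spread is between libraries. Compared within each library, RGS2 and RGS3 were both above RGS14 in every control. By mean, RGS10 (7.88 ± 3.52) and RGS3 (4.07 ± 1.10) led in the KO libraries with overlapping values, followed by RGS2 at 2.89 ± 0.509 FPKM (SD, n = 3 libraries throughout). RGS2 and RGS3 overlapped too, and in KO 1 RGS2 (3.45 FPKM) was above RGS3 (2.84 FPKM). RGS4, at 0.187 ± 0.0513 FPKM, lay just below RGS16 (0.427 ± 0.160).

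The division of the libraries by histone genes cut across these differences, and its part in them was not tested beyond the values here. KO 1 was set against vector control 2 and 3, and KO 2 and 3 against vector control 1, on the log2(FPKM + 1) scale. RGS4 was lower in both settings (-4.66 and -4.31), and so were RGS5 (-2.91 and -1.89), RGS16 (-0.83 and -0.39) and RGS19 (-1.0 and -0.18). RGS20 was higher in both (0.44 and 0.02). The other 5 genes had opposite signs. The values were -0.65 and 0.47 for RGS2, -0.65 and 0.74 for RGS3, -0.47 and 0.51 for RGS14, 0.11 and -0.30 for RGS10, and -0.11 and 0.26 for RGS12. RGS14 and RGS2 were low in vector control 1 (-1.66 and -1.43 on the log2 scale against the mean of vector control 2 and 3).

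The neighbours of RGS4 and RGS5 were read to see how far along the chromosome the low KO values reached. The gene on the far side of RGS4, CCDC190, a coiled-coil gene, stood at 0.91, 0.92 and 0.67 FPKM in the controls and at 0, 0.12 and 0.02 FPKM in the KO libraries. Its groups did not overlap, but it lay below 1 FPKM throughout and was not tested. The next genes on that side were HSD17B7, a cholesterol and steroid enzyme (log2 fold change -0.19), and DDR2, a collagen receptor kinase (0.55), and neither was called. Beyond them UAP1, an enzyme gene of amino sugar metabolism, stood at 67.42, 26.80 and 28.77 FPKM in the controls and at 25.91, 21.32 and 23.09 FPKM in KO, without overlap and with vector control 1 far above the rest (-0.66, limma adjusted p = 0.366). UHMK1 (-0.28) overlapped between the groups. On the side of RGS5, NUF2, a kinetochore gene, stood at 10.93, 8.28 and 8.52 FPKM against 4.38, 7.90 and 7.93 FPKM (-0.43, limma adjusted p = 0.390), with groups that did not overlap but lay close. GENCODE 29 has NUF2 overlapping RGS5 on the opposite strand. The use of strand is not given in the sources used here, so reads of such an overlap cannot be told apart.

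**Figure D3:**
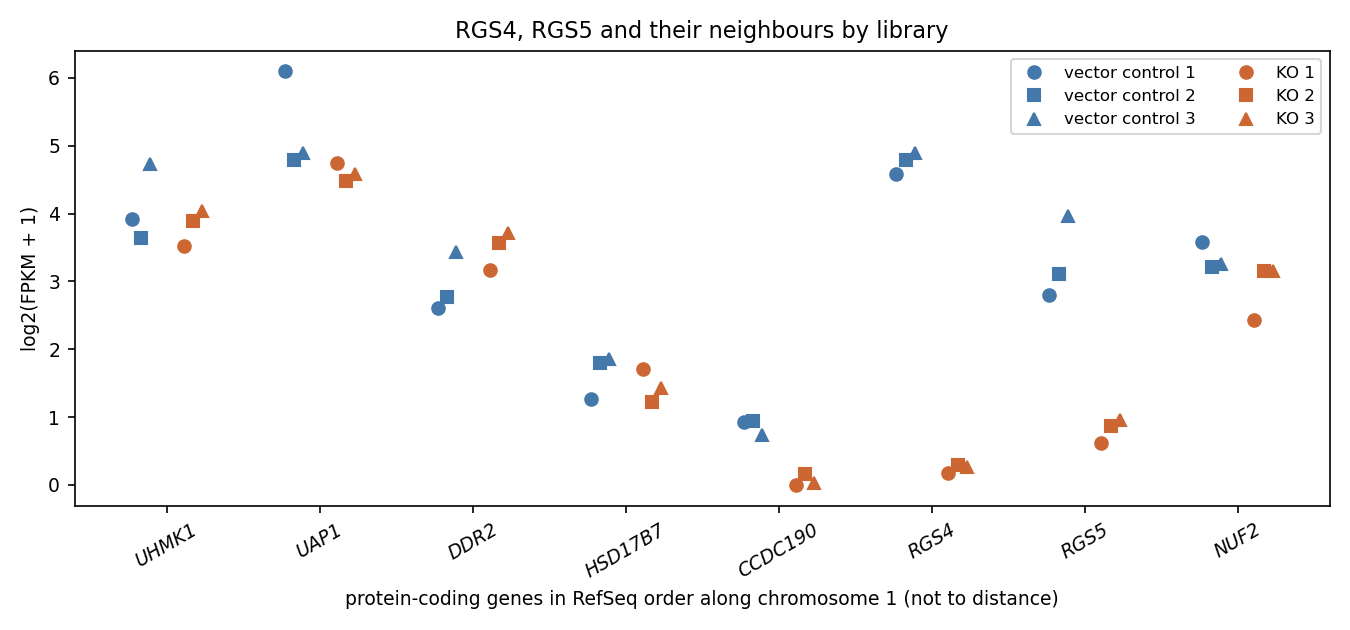
Log2(FPKM + 1) in each library for RGS4, RGS5, the 5 protein-coding genes before RGS4 and the next gene after RGS5, in RefSeq order and not to distance. CCDC190, RGS4 and RGS5, which follow each other, are lower in all KO libraries, as are UAP1 and NUF2 by less, while UHMK1, DDR2 and HSD17B7 overlap between the groups.

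RGS2 and RGS16 lie in stretches of chromosome 1 that hold further RGS genes. Next to RGS2, the genes RGS1, RGS13, RGS18 and RGS21 were at most at 0.10 FPKM, and the gene behind them, BRINP3, stood at 1.38, 1.62 and 1.49 FPKM in the controls and at 0.27, 0.25 and 0 FPKM in KO (log2 fold change -1.10). It was called (limma adjusted p = 0.0183), but passed the filter only through the controls. On the other side UCHL5 (0.02) and RO60 (0.19) were not called. Beside RGS16, RGS8 and RGSL1 were listed at 0.

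The genes with the pattern most like that of RGS4 were found by the root-mean-square difference between centred log2(FPKM + 1) values over the 6 libraries. They were STC1 (0.10), SCG2 (0.32), DKK1 (0.74), PDLIM1 (0.86) and SLC6A12 (0.88). STC1, a secreted glycoprotein hormone gene, stood at 21.93, 30.09 and 31.39 FPKM against 0.20, 0.45 and 0.35 FPKM. RGS5 was the gene at rank 10 for RGS4, at 1.06. The genes most like RGS5 were HLA-DRB1 (0.29), the laminin chain gene LAMB3 (0.30), TNFAIP3 (0.31), AKR1B1 (0.35) and SNAI2 (0.36). In this direction RGS4 was only at rank 547, at the same 1.06, behind RGS19 at rank 537 (1.05). The 6 libraries form 2 groups, and the measure follows the size of the group difference above all.

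The other genes of G protein signalling, and the N-degron enzymes, were counted by role. Of 167 listed genes, 152 had a row of their own, 15 stood only in rows joined with other genes, and 75 were tested. Limma called 0 of the 75, against 1.35% of all rows tested. At an unadjusted p below 0.05 there were 20, 13 higher and 7 lower in KO, or 26.7% against 17.5% of all rows. The median log2 fold change was 0.00 for the 75 and 0.08 for all rows.

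Among the alpha subunits, on which RGS proteins act, 0 of 9 tested genes were called (2 at an unadjusted p below 0.05). GNAI2, a Gi subunit, stood at 10.82, 16.09 and 16.51 FPKM in the controls and at 17.76, 24.86 and 22.03 FPKM in KO (log2 fold change 0.55, limma adjusted p = 0.247). GNA13, a subunit of a further class, stood at 24.36, 54.40 and 49.92 FPKM against 30.39, 20.67 and 22.97 FPKM (-0.71, limma adjusted p = 0.303). Vector control 1 lay among the KO libraries for that gene. The Gi subunit GNAI1 had a log2 fold change of -0.58 and the Gq-class subunit GNA11 one of 0.29.

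Among 6 tested beta and gamma subunits 0 were called, with 2 at an unadjusted p below 0.05. GNGT1, the gamma subunit known from rod cells, came nearest, at 1.16, 1.13 and 0.89 FPKM in the controls and 2.48, 2.34 and 2.42 FPKM in KO (log2 fold change 0.73, SE 0.13, limma adjusted p = 0.0517). GNB5, the beta subunit that pairs with RGS9 and its relatives, had 0.32, GNG12 -0.43 and GNB2 -0.11. Of the 7 tested RGS-like genes and partners, 0 were called and 1 had an unadjusted p below 0.05, with ARHGEF1 (0.33) and SNX25 (0.32) highest and ARHGEF12 (-0.34) and the WNT scaffold gene AXIN1 (-0.08) lowest. ARHGEF1 and ARHGEF12 encode exchange factors that bind alpha subunits of the GNA12 and GNA13 class.

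Receptors held the widest values of the lists, and 0 of 18 tested were called (6 at an unadjusted p below 0.05). F2RL1, the receptor PAR2 that trypsin-like proteases cut open, stood at 36.11, 43.60 and 39.45 FPKM in the controls and at 17.82, 8.10 and 5.25 FPKM in the KO libraries. The groups did not overlap, and KO 1 was the highest KO library (log2 fold change -1.99, SE 0.37, limma adjusted p = 0.0587). F2RL2, a related receptor gene, stood at 2.14, 1.46 and 2.08 FPKM against 2.32, 7.26 and 8.56 FPKM (1.15, limma adjusted p = 0.209). GPR39, a zinc-sensing receptor gene, had 0.94. Vector control 1 stood apart for GPR39, at 2.36 FPKM against 0.51 and 0.38 FPKM in vector control 2 and 3. It lay next to the KO libraries, which stood at 2.38, 2.76 and 2.86 FPKM.

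Further from the receptor, 0 of 14 effector genes were called (5 at an unadjusted p below 0.05). PRKACA, a catalytic subunit of the cyclic AMP dependent kinase, had a log2 fold change of 0.56, the adenylyl cyclase gene ADCY6 0.55 and the calcium release channel gene ITPR3 -0.61. The adenylyl cyclase gene ADCY3 had -0.18. Of 7 other modulators 0 were called and 3 had an unadjusted p below 0.05, with CCDC88A (0.50) and the alpha subunit chaperone gene RIC8B (0.46) highest and RAP1GAP (-0.41) and PDCL (-0.40) lowest. Of 6 receptor kinases and arrestins 0 were called and 1 had an unadjusted p below 0.05, from GRK3 (0.35) and ARRB1 (0.16) to GRK5 (-0.07) and GRK2 (-0.50). The N-degron enzymes had 0 called of 8 tested, and 0 at an unadjusted p below 0.05, with UBR1 (0.57) and ATE1 (0.54) highest and METAP2 (-0.03) and METAP1 (-0.30) lowest.

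**Figure D4:**
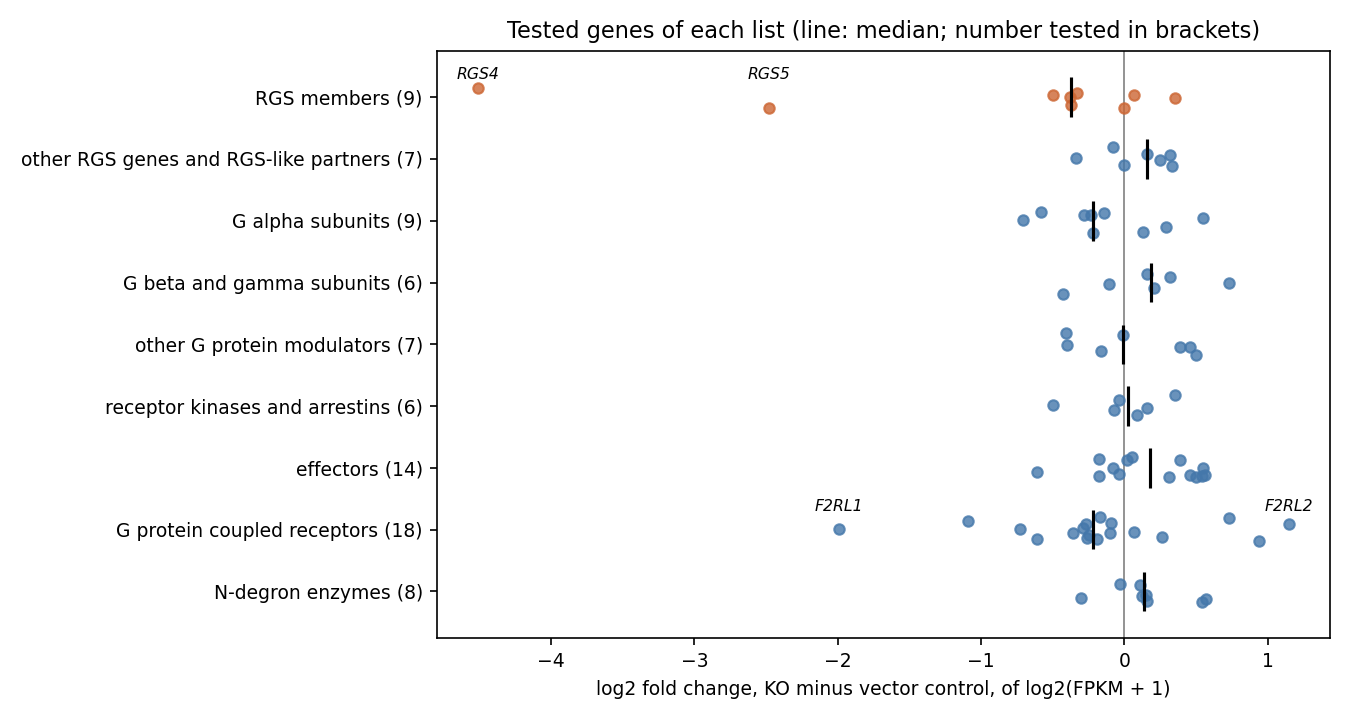
Log2 fold change (KO minus vector control, of log2(FPKM + 1)) of each tested gene, in orange for the RGS genes described here and in blue for the other lists of the pathway, with a line at each median and the number tested in brackets. RGS4 (-4.51) and RGS5 (-2.48) lie outside the range of the 75 other genes, which runs from -1.99 for F2RL1 to 1.15 for F2RL2.

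These counts rest on single libraries in part. Without vector control 1 limma called 12 of the 75 pathway genes, and without KO 1 it called F2RL1 and F2RL2. With the histone division as a term it called GNGT1 and F2RL1.

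Markers of other cell types were low where they had a row of their own, and the sums here leave out rows shared with other genes. Of 10 pericyte and smooth muscle genes, KCNJ8, ABCC9 and DES were listed at 0 in all libraries, and NOTCH3, which is not restricted to those cells, made up most of a sum of 2.98 to 4.89 FPKM in the controls and 5.87 to 6.51 FPKM in the KO libraries. Endothelial markers summed to between 0.690 and 1.82 FPKM per library, with VWF and KDR at 0. Leukocyte markers summed to 0.0900 to 0.680 FPKM in the controls and 1.20 to 1.83 FPKM in the KO libraries, without CD68, whose row is shared with EIF4A1 and SENP3. LYZ, a lysozyme gene, was listed at 0 in the controls and at 1.20 to 1.83 FPKM in KO, the group through which alone it passed the filter. It was called higher (limma adjusted p = 0.00799). PTPRC was at 0 throughout. Neuronal markers summed to between 0.920 and 1.74 FPKM without TUBB3, whose shared row stood at 3.97 to 10.49 FPKM. The epithelial markers, of which 3 of 12 were tested and 0 called, summed to 109 to 162 FPKM in the controls and 66.9 to 84.5 FPKM in KO, without KRT8, CLDN7 and MUC1, whose rows are shared. KRT18 was at 28.78 to 79.42 FPKM, while EPCAM (at most 0.14 FPKM) and CDH1 (at most 0.02 FPKM) were nearly absent from both groups. The part of these markers in the RGS values was not tested.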

How the data were processed

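The authors deposited 1 table of FPKM values with 2 decimals, 1 column per library. The submitters' processing notes name cutadapt, FastQC, HISAT2 and the build hg19. What version was used, what computed the FPKM, from which annotation and whether by strand is not given in the sources used here. Low values were searched for steps of whole reads and showed none (best concentration 0.411, in vector control 1, on a scale where 1 is perfect). The depth behind the values is unknown, and precision rests on 3 libraries per group. Rows joining several symbols (990) were kept as 1 unit.

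The whole table was fitted with limma 3.58.1 (R 4.3.3; eBayes with a trend, two-sided) on log2(FPKM + 1), for rows at 1 FPKM or more in at least 3 of 6 libraries. The RGS genes and the lists were chosen with earlier results of these data known. Named by rule were the 10 RGS genes, called genes and up to 2 highest and 2 lowest genes of each pathway list, and the 5 genes most like RGS4 and RGS5. Marker genes, neighbours, RGS9 and RGS17 were singled out after their values were seen. Some genes that the rule names are not reported here. Alternatives were another pseudocount, filters, scalings and variance models, the replicate block, the histone division, each library left out, and other thresholds.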

Additional observations from a re-analysis of the deposited data

How the results depend on the processing

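The fit called 130 genes of the whole table, 0 pathway genes and 2 RGS genes (RGS4 and RGS5). Over the whole table the count was 59 when only rows reaching 5 FPKM were kept, 241 when none were removed, 240 with the histone division as a covariate, 4020 with robust limma and array weights, 31 at an adjusted p below 0.01 and 274 below 0.10. The pathway count was 2 with the histone division, 1 (LPAR6) with no rows removed, 43 with robust limma and array weights and 2 at 0.10. The RGS count was 6 with robust limma and array weights, adding RGS2, RGS10, RGS14 and RGS20. The cause of these shifts was not tested. With a library left out, the counts ran from 25 (KO 3) to 1329 (vector control 1) for the whole table, from 0 to 12 (vector control 1) for the pathway, and from 1 (KO 1, KO 2 or KO 3, each without RGS5) to 4 (vector control 1, adding RGS2 and RGS20). Quantile normalization turned 49 higher and 81 lower calls into 31 and 99, and gave RGS12 a log2 fold change of -0.09. Deviations from the group mean correlated at r of -0.374, -0.153 and -0.264 between same-numbered libraries. These lie on opposite sides of the histone division, while libraries of the 2 groups on the same side had r of 0.183 to 0.324. Whether the numbers pair the libraries can therefore not be told from these values. With the replicate block 7 genes were called, 0 of the pathway and 1 RGS gene, RGS4. With a pseudocount of 0.1 the log2 fold change was -6.53 for RGS4 and -3.38 for RGS5.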
